A study of Mus musculus with 8 samples.

Results

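The proteasome is described here by its subunit genes, taken as every gene whose symbol is Psma, Psmb, Psmc, Psmd or Psme followed by a number and that has a probe set annotated to that gene alone. This rule gave 41 genes of the 12393 named on the array, with 74 probe sets between them, and each gene was represented by the brightest of its probe sets, by mean over the 8 arrays. The rule used no difference between groups. Of the genes, 4 encode the inducible forms, namely the immunoproteasome catalytic subunits Psmb8, Psmb9 and Psmb10 and the activator subunit Psme1, and the other 37 genes encode standard subunits, other activators and assembly chaperones. Of the 41, 40 passed the filter on low values, all but Psma8, an alpha subunit known from testis, whose intensity lay between 13.5 and 31.7 on the 8 arrays. The only probe set of Psme2, the partner of Psme1, is shared with Psme2b, so Psme2 was not analysed here, and neither was Psmb11, the thymus-specific catalytic subunit.

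RNA of CD45+/Sca1+ cells of C57BL/6 mice aged 6 to 8 weeks was hybridised to Affymetrix Mouse430A arrays, 1 array per sample and 2 per group. The cells came from cardiotoxin-injured muscle of bone marrow transplanted mice, from cardiotoxin-injured muscle with no transplant in the labels, from uninjured muscle, and from bone marrow of mice with no injury or transplant in the labels. Cardiotoxin is a snake venom toxin that lyses muscle fibres and is followed by leukocyte entry and regeneration. The labels do not give the time after injury, the donor of the transplanted marrow or how far it replaced the host's blood cells, or whether the replicates of a group came from different animals. The p-values therefore rest on array-to-array spread alone, and that spread may be technical.

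The proteasome degrades proteins tagged with ubiquitin. A 20S core, built of alpha rings and catalytic beta rings, is capped by the 19S particle, whose ATPases unfold the substrate and whose other subunits bind and remove ubiquitin. Interferon gamma induces Psmb8, Psmb9 and Psmb10, which replace Psmb5, Psmb6 and Psmb7 in newly built cores, and the activator PA28 made of Psme1 and Psme2. Such immunoproteasomes are abundant in leukocytes and cut peptides for MHC class I presentation.

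The sort marker Ptprc, which encodes CD45, lay between 4924 and 6996 on all 8 arrays. The Sca1 gene was not analysed here. RNA quality controls separated the injured from the uninjured samples: the 3′ to 5′ intensity ratio of the Gapdh control probe sets was 0.808 to 0.882 on the 4 injured arrays, against 10.7 to 46.9 on the uninjured muscle and bone marrow arrays, and that of the actin control was 1.18 to 1.23 against 5.68 to 19.03. Replicate 1 of uninjured muscle had the highest of both ratios, and replicates of uninjured muscle correlated at 0.837 over tested probe sets, against 0.929 to 0.957 in the other groups. The median intensity of the 41 subunit genes was 1573 and 1705 in transplanted injured muscle, 1530 and 1429 in injured muscle, 920 and 658 in uninjured muscle, and 1058 and 981 in bone marrow. Of the 40 genes that passed the filter, 17 had their lowest value on replicate 1 and 15 on replicate 2 of uninjured muscle. The highest value lay on a transplanted injured muscle array for 13 genes on each replicate. Cell type markers differed as well. The summed intensity of 5 of 5 neutrophil markers was 314 to 570 on the injured arrays, where Ngp, Ltf and Camp were all under the filter of 38.4, against 14821 to 41048 on the uninjured ones. That of 3 of 4 B cell markers was 65 to 150 against 2460 to 10359, and that of 3 of 4 T cell markers 120 to 135 against 701 to 2178. That of 6 of 6 macrophage markers was 47165 to 57767 on the injured arrays, against 22893 and 26749 in uninjured muscle and 7578 and 9274 in bone marrow. Mrc1 alone of them was higher in uninjured muscle, at 5495 and 5070, than on the injured arrays, at 3476 to 4909. That of 5 of 5 fibroblast markers was 3494 and 3685 in transplanted injured muscle, 18644 and 18840 in injured muscle, 27714 and 6948 in uninjured muscle, and 108 and 265 in bone marrow. That of 4 of 4 muscle fibre markers was 140 and 144 in transplanted injured muscle, 820 and 708 in injured muscle, 2445 and 4181 in uninjured muscle, and 83.4 and 120 in bone marrow. That of 4 of 4 endothelial markers was 211 to 292 on the injured arrays, against 3244 and 1544 in uninjured muscle and 587 and 584 in bone marrow. No marker used was at 0. In such bulk samples a smaller share of a cell type and less RNA per cell cannot be told apart.

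The inducible subunits come first, with their promoter windows, because interferon gamma is known to induce them. The windows below run from 250 bases before to 50 after the gene start in RefSeq (GRCm38.p6), at chr17:34197945-34198244 (plus strand) for Psmb8, chr17:34187281-34187580 (minus strand) for Psmb9, chr8:105938343-105938642 (minus strand) for Psmb10 and chr14:55578244-55578543 (plus strand) for Psme1. Those of Psmb5, at chr14:54617946-54618245 (minus strand), and Psmb6, at chr11:70525107-70525406 (plus strand), are shown as standard counterparts. No window is shown for Psmb7. Windows of 34 subunit genes were searched, so a gene missing from the matches given below may not have been searched. Capitals mark a match to the gamma activated site TTCNNNGAA in Psmb8, to the interferon stimulated response element core (ISRE core) in Psme1, and to the antioxidant response element core TGACNNNGC in Psmb5 and Psmb6.
Psmb8: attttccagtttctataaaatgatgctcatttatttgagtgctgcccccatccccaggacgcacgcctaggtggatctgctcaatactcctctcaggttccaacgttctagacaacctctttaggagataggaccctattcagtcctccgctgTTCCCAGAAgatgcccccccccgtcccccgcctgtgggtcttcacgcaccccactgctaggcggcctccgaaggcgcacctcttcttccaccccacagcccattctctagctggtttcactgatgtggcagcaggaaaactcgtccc
Psmb9: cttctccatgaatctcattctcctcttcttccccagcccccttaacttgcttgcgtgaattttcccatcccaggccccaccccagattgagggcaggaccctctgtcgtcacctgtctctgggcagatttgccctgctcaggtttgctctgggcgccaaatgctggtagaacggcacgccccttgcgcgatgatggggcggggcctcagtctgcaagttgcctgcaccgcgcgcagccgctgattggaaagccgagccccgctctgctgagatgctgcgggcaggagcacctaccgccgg
Psmb10: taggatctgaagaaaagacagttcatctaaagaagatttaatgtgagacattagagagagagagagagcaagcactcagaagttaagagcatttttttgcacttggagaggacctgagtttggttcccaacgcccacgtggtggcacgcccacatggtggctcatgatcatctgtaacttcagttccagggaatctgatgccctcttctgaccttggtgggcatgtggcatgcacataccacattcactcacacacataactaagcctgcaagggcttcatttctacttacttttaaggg
Psme1: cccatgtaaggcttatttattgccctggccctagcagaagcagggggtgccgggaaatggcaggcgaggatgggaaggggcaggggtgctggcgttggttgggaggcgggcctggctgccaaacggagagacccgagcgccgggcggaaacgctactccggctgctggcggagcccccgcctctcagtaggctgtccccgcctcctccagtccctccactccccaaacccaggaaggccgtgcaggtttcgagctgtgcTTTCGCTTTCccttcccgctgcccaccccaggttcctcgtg
Psmb5: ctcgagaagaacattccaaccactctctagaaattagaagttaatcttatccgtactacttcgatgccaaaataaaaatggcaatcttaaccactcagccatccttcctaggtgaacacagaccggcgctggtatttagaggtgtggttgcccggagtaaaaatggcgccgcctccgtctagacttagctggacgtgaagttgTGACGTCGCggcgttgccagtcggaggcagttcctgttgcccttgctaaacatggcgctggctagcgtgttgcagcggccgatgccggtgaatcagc
Psmb6: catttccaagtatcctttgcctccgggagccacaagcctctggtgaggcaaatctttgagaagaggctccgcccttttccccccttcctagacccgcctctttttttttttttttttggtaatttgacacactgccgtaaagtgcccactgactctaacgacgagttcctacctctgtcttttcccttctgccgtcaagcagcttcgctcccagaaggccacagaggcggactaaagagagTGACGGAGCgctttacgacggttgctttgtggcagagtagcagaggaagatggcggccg

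The 3 motifs were searched on both strands of 36 windows of 34 subunit genes and of all 32851 windows of the table. The gamma activated site, which reads alike on both strands, occurred in 5.56% of the subunit windows, those of Psmb8 and Psmd2, against 8.3% of all windows. The ISRE core occurred in 11.1%, those of Psme1, Psmb3, Psmd4 and Psmd9, against 3.44% of all. The antioxidant response element core, letters within the sites to which the factors Nfe2l1 and Nfe2l2 bind, occurred in 16.7%, those of Psmb5, Psmb6, Psmc6, Psmd9, Psmd12 and Psme4, against 12.4% of all. No motif searched overlapped another in the windows shown. The windows of Psmb9 and Psmb10 held none of these letter strings. The Psmb9 window shares 275 bases with that of Tap1, the peptide transporter gene that starts 226 bases away on the other strand.

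Psmb8, which takes the place of Psmb5, had intensities of 2696 and 2639 in transplanted injured muscle, 2463 and 2077 in injured muscle, 1048 and 1354 in uninjured muscle, and 2397 and 3539 in bone marrow. Both uninjured muscle arrays lay below the 6 others, and bone marrow overlapped both injured groups. Psmb8 rose in injured over uninjured muscle by 0.92 on the log2 scale (SE 0.26, limma adjusted p = 0.0363), and it fell by 1.29 in uninjured muscle relative to bone marrow (SE 0.26, limma adjusted p = 0.0270). Both calls depended on single arrays: the adjusted p of injured over uninjured muscle was 0.0795 without replicate 1 of uninjured muscle, 0.0711 without either transplanted array, and 0.205 and 0.109 without replicate 1 and replicate 2 of injured muscle. The adjusted p of uninjured muscle against bone marrow was 0.134 without replicate 2 of bone marrow, and 0.0688 to 0.0698 without any one of the 4 injured arrays. Psmb8 was called in 12 of 20 alternative settings in each of these comparisons.

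Psmb9, which takes the place of Psmb6, had intensities of 1513 and 1571 in transplanted injured muscle, 1154 and 1180 in injured muscle, 94.5 and 687 in uninjured muscle, and 1311 and 2170 in bone marrow. Both uninjured muscle arrays were again the lowest of the 8, but they lay far apart. The transplanted arrays lay within the bone marrow range and the injured muscle arrays just under it. The log2 difference of injured over uninjured muscle was 2.17 (SE 0.76, 95% interval 0.42 to 3.91, limma adjusted p = 0.0688), and that of uninjured muscle over bone marrow was -2.70 (SE 0.76, limma adjusted p = 0.0887). Replicate 1 of uninjured muscle set the size of both. Without it the differences were 0.76 and -1.29, and without replicate 2 they were 3.57 and -4.10. Either way only 1 uninjured muscle array was left, so the spread of that group could not be measured.

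Psmb10, which takes the place of Psmb7, had intensities of 2368 and 2297 in transplanted injured muscle, 2325 and 1745 in injured muscle, 208 and 1424 in uninjured muscle, and 1580 and 2237 in bone marrow. Both uninjured muscle arrays lay below the other 6, with replicate 2 near replicate 1 of bone marrow. The log2 difference of injured over uninjured muscle was 1.87 (SE 0.74, 95% interval 0.18 to 3.57, limma adjusted p = 0.0936), and that of uninjured muscle over bone marrow was -1.78 (SE 0.74, limma adjusted p = 0.236). Without replicate 1 of uninjured muscle these differences were 0.50 and -0.40, and without replicate 2 they were 3.25 and -3.15. Here too only 1 uninjured muscle array was left, so the spread of that group could not be measured.

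Psme1, which encodes the alpha subunit of PA28, had intensities of 2780 and 2931 in transplanted injured muscle, 2776 and 2729 in injured muscle, 1478 and 1457 in uninjured muscle, and 2014 and 2462 in bone marrow. All 4 injured arrays lay above all 4 others, and uninjured muscle was lowest. Psme1 rose in injured over uninjured muscle by 0.91 (SE 0.21, limma adjusted p = 0.0167). The adjusted p was 0.109 and 0.0941 without replicate 1 and replicate 2 of injured muscle, and the call held in 16 of 20 settings. The log2 difference of uninjured muscle over bone marrow was -0.60 (SE 0.21, limma adjusted p = 0.155).

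Of the standard catalytic subunits, Psmb6 was also lowest in uninjured muscle, whereas Psmb5 and Psmb7 overlapped between injured and uninjured muscle. Psmb5, the chymotrypsin-like subunit, had intensities of 1247 and 1400 in transplanted injured muscle, 1048 and 1129 in injured muscle, 943 and 1358 in uninjured muscle, and 1754 and 1676 in bone marrow, where it was highest. Its log2 difference of injured over uninjured muscle was -0.06 (95% interval -0.66 to 0.54, limma adjusted p = 0.887). Psmb6, the caspase-like subunit, had 2878 and 2920 in transplanted injured muscle, 2026 and 1952 in injured muscle, 1333 and 1280 in uninjured muscle, and 1695 and 1981 in bone marrow. Both transplanted arrays lay above all others and both uninjured muscle arrays below. Psmb6 rose in transplanted injured muscle over bone marrow by 0.66 (SE 0.21, limma adjusted p = 0.0425), and its difference of injured over uninjured muscle was 0.61 (SE 0.21, limma adjusted p = 0.0651). The rise over bone marrow was called in 10 of 20 settings, and leaving out any one of 6 arrays ended it: its adjusted p was 0.168 and 0.179 without replicate 1 and replicate 2 of transplanted injured muscle, 0.0884 and 0.0875 without those of injured muscle, and 0.143 and 0.0581 without those of bone marrow. Psmb7, the trypsin-like subunit, had 3450 and 4085 in transplanted injured muscle, 2559 and 2815 in injured muscle, 2690 and 1099 in uninjured muscle, and 2367 and 1726 in bone marrow. Injured and uninjured muscle overlapped for Psmb7, with a log2 difference of 0.64 (SE 0.40, limma adjusted p = 0.254). The plot of inducible and standard catalytic subunits by array shows these values.

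**Figure D1:**
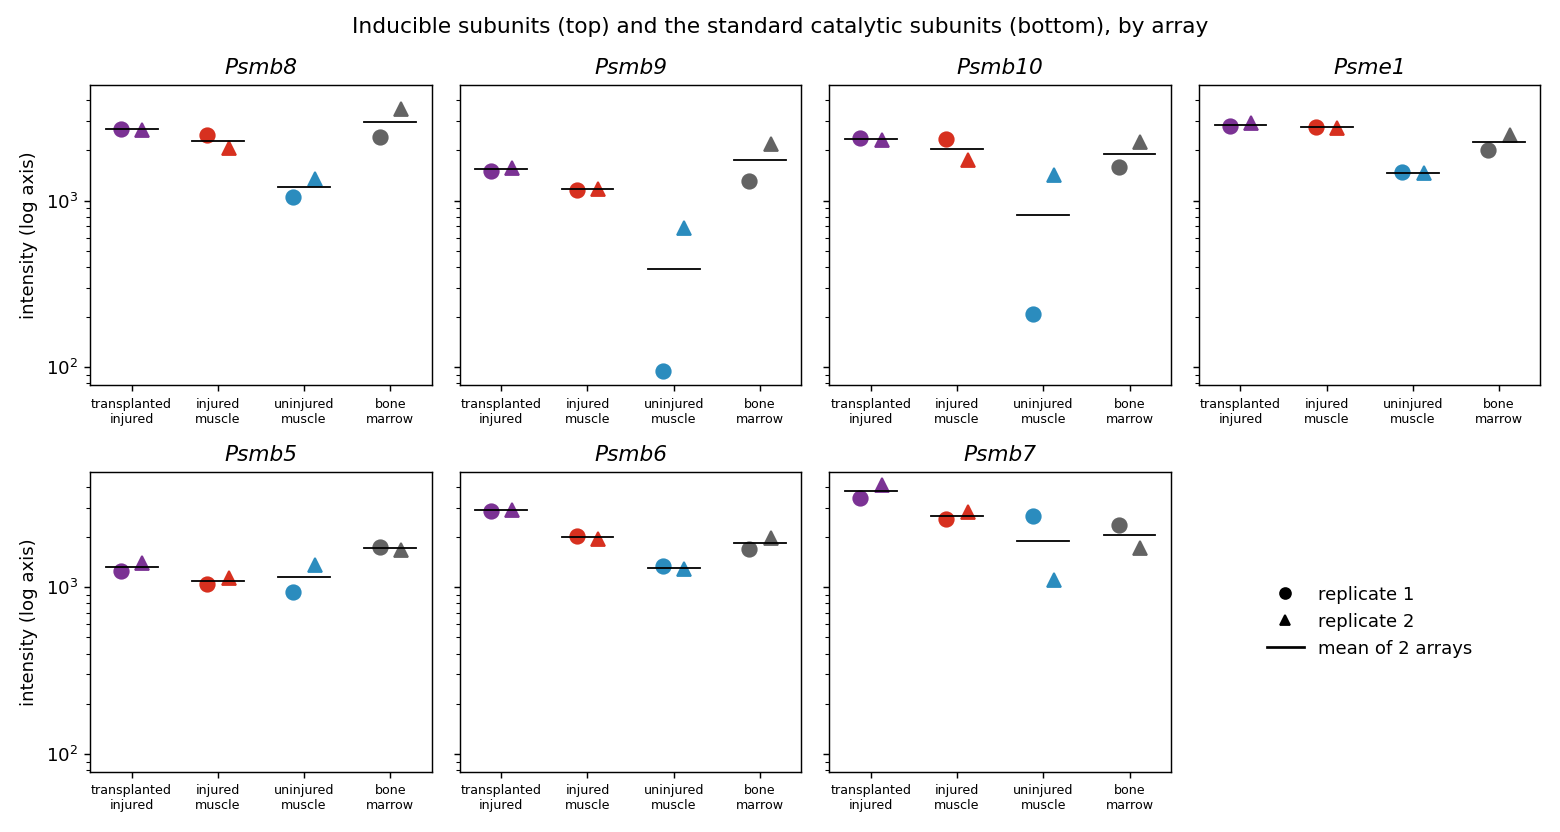
Intensity (log axis) of the inducible subunits Psmb8, Psmb9, Psmb10 and Psme1 (top) and of the standard catalytic subunits Psmb5, Psmb6 and Psmb7 (bottom) in each group, with a symbol per array and a line at the mean of 2 arrays. Each inducible subunit was lowest on both uninjured muscle arrays, with Psmb9 at 94.5 and Psmb10 at 208 on replicate 1. The standard subunit Psmb6 was lowest there too, whereas Psmb5 and Psmb7 overlapped between injured and uninjured muscle.

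Within each array, the log2 value of an inducible subunit minus that of the standard subunit it replaces was set relative to the bone marrow mean, so that only changes of the difference count. Psmb8 minus Psmb5 was 0.35 and 0.15 in transplanted injured muscle, 0.47 and 0.11 in injured muscle, -0.61 and -0.77 in uninjured muscle, and -0.31 and 0.31 in bone marrow. Both uninjured muscle arrays lay below the other 6, by a mean of 0.98 relative to injured muscle. Psmb9 minus Psmb6 was -0.81 and -0.77 in transplanted injured muscle, -0.69 and -0.61 in injured muscle, -3.64 and -0.77 in uninjured muscle, and -0.25 and 0.25 in bone marrow. Replicate 1 of uninjured muscle stood alone, and replicate 2 lay between the transplanted arrays. Psmb10 minus Psmb7 was -0.44 and -0.73 in transplanted injured muscle, -0.03 and -0.58 in injured muscle, -3.56 and 0.48 in uninjured muscle, and -0.48 and 0.48 in bone marrow. In this pair the uninjured muscle arrays held both the lowest and the highest values outside bone marrow, so that injured and uninjured muscle overlapped. No test of these differences was run, and an exact permutation test with 2 arrays against 2 cannot go below p = 0.333.

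**Figure D2:**
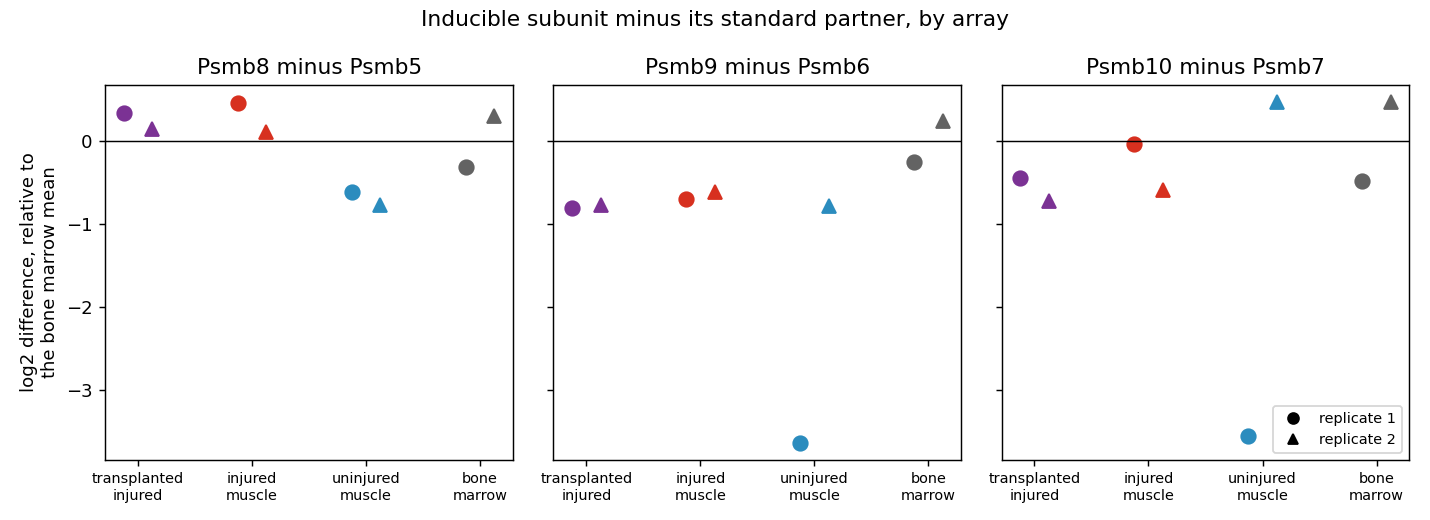
Log2 value of each inducible subunit minus that of the standard subunit it replaces, relative to the bone marrow mean of that difference (vertical axis, log2), with a symbol per array and the groups along the horizontal axis. Psmb8 minus Psmb5 was below the other groups on both uninjured muscle arrays (-0.61 and -0.77), while in the other pairs replicate 1 of uninjured muscle stood alone at -3.64 and -3.56.

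In injured over uninjured muscle, 12 of the 40 tested subunit genes rose and none fell, or 30% higher against 12.1% higher and 13.9% lower among all 16285 tested probe sets. The median log2 difference of the 40 was 0.70, beside -0.14 over all tested probe sets, and 33 of the 40 differences were above 0. At an unadjusted p under 0.05, 19 of the 40 passed. With each array centred on its own median, the split over all probe sets turned to 2302 higher and 1695 lower, against 1973 and 2262 with the deposited scaling, and 16 subunit genes were called higher. The share of subunit genes that rose was above that of all tested probe sets in this comparison. The sets are unlike, since each subunit gene was read on its brightest probe set and the background includes dim ones. With the filter at the 60th percentile 12 subunit genes were higher, against 15.3% of all tested probe sets. Far fewer subunit genes were called when either injured muscle array was left out, and the share of all tested probe sets called higher fell too.

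The genes that rose came from the alpha ring, the beta rings and the 19S particle. The counts for each part are small, and 12.1% of all tested probe sets were called higher. In the 20S alpha ring, which gates the core, Psma1, Psma4, Psma5 and Psma7 rose, 4 of the 7 tested. Among the non-catalytic beta subunits Psmb1 and Psmb4 rose, 2 of 4, and of the standard catalytic ones none of 3 was called. The other probe sets of Psmb1 and Psmb4 had differences below 0, as given further below. In the 19S particle 2 of 6 ATPases, Psmc1 and Psmc3, and 2 of 11 non-ATPases, Psmd7 and Psmd8, rose. Of the 3 assembly chaperones Psmd5, Psmd9 and Psmd10, and of the activators Psme3 and Psme4, none was called. With Psmb8 and Psme1, 2 of the 4 inducible genes rose.

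Psma7, a subunit of the alpha ring, had intensities of 1951 and 2132 in transplanted injured muscle, 1623 and 1678 in injured muscle, 256 and 253 in uninjured muscle, and 526 and 348 in bone marrow. It rose by 2.68 in injured over uninjured muscle (SE 0.29, limma adjusted p = 0.00139) and by 2.24 in transplanted injured muscle over bone marrow (SE 0.29, limma adjusted p = 0.00109). All 4 injured arrays lay above all 4 uninjured ones, and the rise was called in 21 of 21 settings in both comparisons.

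Psmd8, a lid subunit of the 19S particle, had intensities of 3575 and 3103 in transplanted injured muscle, 2787 and 2406 in injured muscle, 248 and 528 in uninjured muscle, and 497 and 361 in bone marrow. It rose by 2.82 in injured over uninjured muscle (SE 0.38, limma adjusted p = 0.00268) and by 2.96 in transplanted injured muscle over bone marrow (SE 0.38, limma adjusted p = 0.00108), the largest differences in both comparisons among the brightest probe sets of the subunit genes. Injured and uninjured arrays did not overlap.

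Psmc1, an ATPase at the base of the 19S particle, had intensities of 1166 and 1304 in transplanted injured muscle, 1041 and 957 in injured muscle, 259 and 333 in uninjured muscle, and 365 and 370 in bone marrow. It rose by 1.75 in injured over uninjured muscle (SE 0.27, limma adjusted p = 0.0046) and by 1.73 in transplanted injured muscle over bone marrow (SE 0.27, limma adjusted p = 0.00269). The 2 groups of injured arrays lay close together and well above both uninjured groups. Psmd8 and Psmc1 were called in 20 of 20 settings in both comparisons.

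Psma4, of the alpha ring, had 2602 and 2590 in transplanted injured muscle, 2334 and 2155 in injured muscle, 983 and 556 in uninjured muscle, and 856 and 886 in bone marrow. It rose by 1.60 in injured over uninjured muscle (SE 0.30, limma adjusted p = 0.00824). Psmd7, a lid subunit, had 557 and 582 in transplanted injured muscle, 416 and 329 in injured muscle, 155 and 77.1 in uninjured muscle, and 66.8 and 154 in bone marrow. It rose by 1.72 (SE 0.48, limma adjusted p = 0.0339). For both genes the injured arrays stood above all uninjured ones. The other 5 genes that rose had log2 differences of 1.29 for Psmc3, 1.27 for Psma5, 1.00 for Psmb4, 0.92 for Psma1 and 0.76 for Psmb1, with limma adjusted p between 0.00938 for Psmb4 and 0.0379 for Psmb1. The calls of these 7 genes held in 17 of 20 settings for Psma4 and Psmc3, 17 of 21 for Psmb4, 16 of 21 for Psma5, 13 of 21 for Psmd7, 12 of 20 for Psma1 and 11 of 21 for Psmb1. The 28 genes that were not called had log2 differences between -0.54 for Psma6 and 2.19 for Psmd13. Psmd13, a further lid subunit, had the widest spread of these, with 857 and 795 in injured muscle, against 49.6 and 616 in uninjured muscle.

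**Figure D3:**
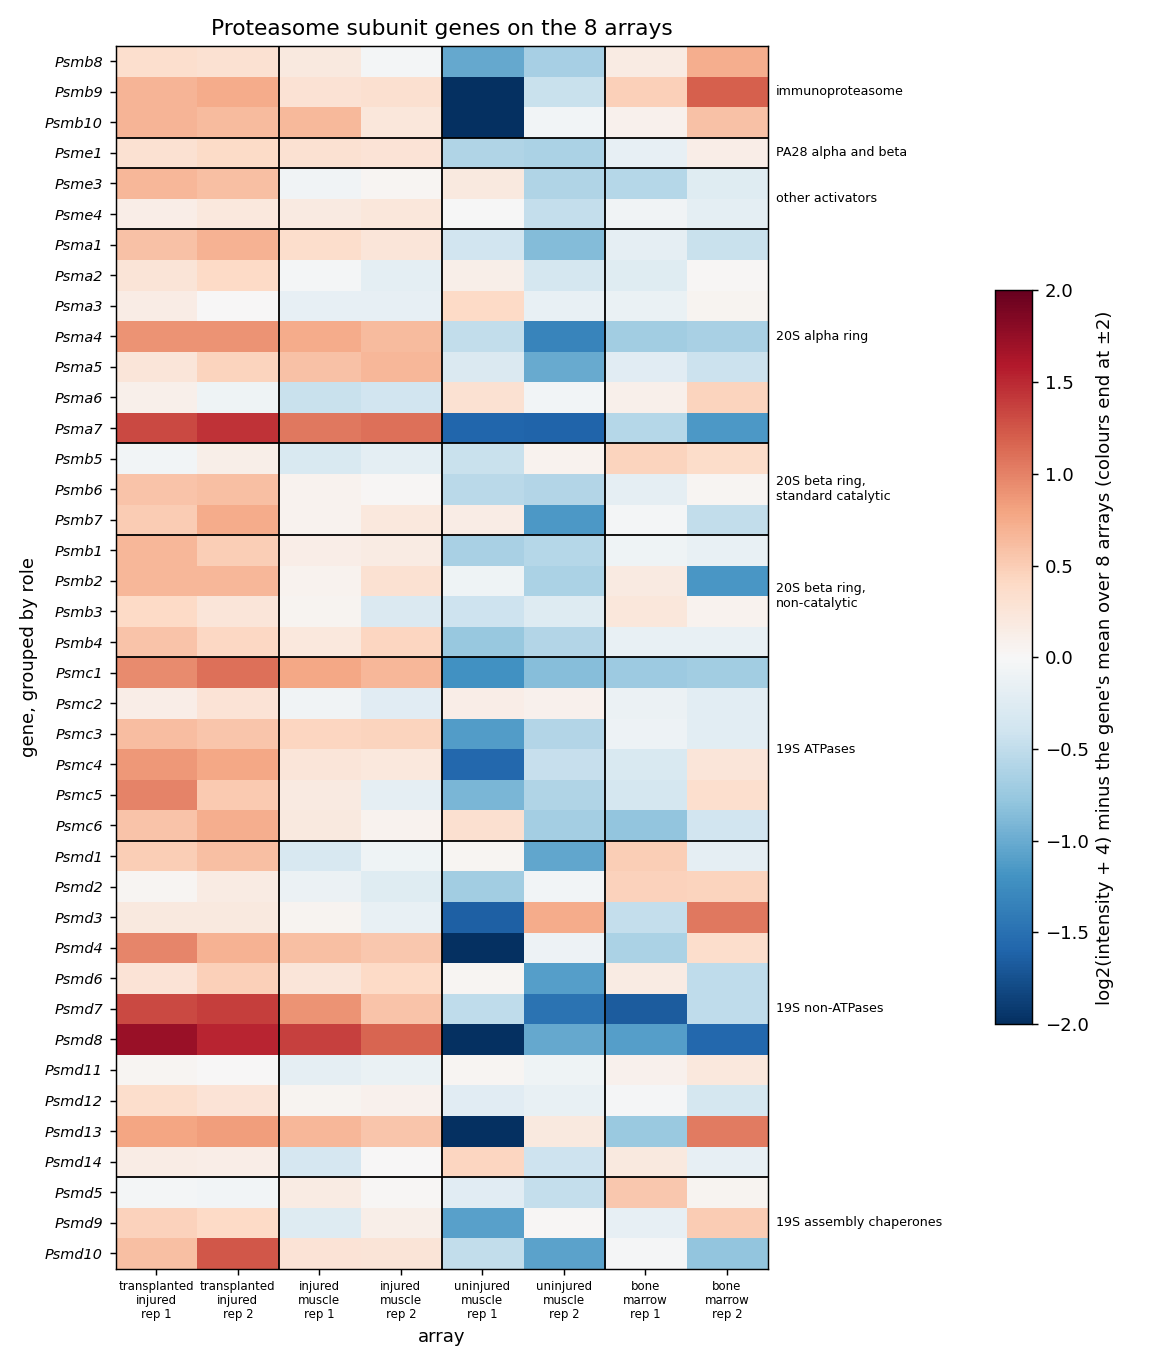
Log2(intensity + 4) of 40 subunit genes (rows, grouped by role) on the 8 arrays (columns), each minus the gene's mean over the arrays, with red above and blue below the mean. Psma7, Psmd7 and Psmd8 are red on all 4 injured arrays and blue on all 4 others, and replicate 1 of uninjured muscle holds the lowest value of 17 of the 40 genes.

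In transplanted injured muscle over bone marrow, on arrays that the comparison of injured with uninjured muscle does not use, 11 of 40 subunit genes rose and none fell, or 27.5% higher against 15.1% higher and 17.4% lower among all tested probe sets. The median log2 difference was 0.59, beside -0.18 over all tested probe sets. The genes were Psma1, Psma4 and Psma7 of the alpha ring, Psmb1, Psmb4 and Psmb6 of the beta rings, Psmc1 and Psmc6 of the ATPases, Psmd7 and Psmd8 of the lid, and the chaperone Psmd10. None of the 4 inducible genes was called. The count depended on single arrays. It fell when any bone marrow or injured array was left out and rose when an uninjured muscle array was left out. The share of all tested probe sets called higher moved the same way each time, but the sizes of the shifts were not compared.

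Psmd7 rose by 2.44 (SE 0.48, limma adjusted p = 0.00704) and Psma4 by 1.57 (SE 0.30, limma adjusted p = 0.0059) in this comparison. Psmd7 was called the other way on its second probe set, which had 9.85 and 11.5 in transplanted injured muscle, both under 38.4, against 67.6 and 85.2 in bone marrow, at least 1.90-fold lower by the filter value (limma adjusted p = 0.00794). Psmd10, also known as gankyrin, had 303 and 473 in transplanted injured muscle, against 194 and 113 in bone marrow, and rose by 1.33 (SE 0.41, limma adjusted p = 0.0390). Psmc6 had 1206 and 1349 in transplanted injured muscle, against 471 and 623 in bone marrow, and rose by 1.23 (SE 0.36, limma adjusted p = 0.0339). The groups did not overlap for either gene, but the second probe set of Psmc6 had a difference of -0.66 (limma adjusted p = 0.289). Over the 11 genes called, 5 had 6 further probe sets, of which 1 was called higher, 1 lower and 4 not, and 2 of 6 had the sign of the first. Psma1, Psmb1 and Psmb4 rose by 0.95, 0.69 and 0.64. Calls held in 18 of 21 settings for Psmd7, 15 of 20 for Psmd10, 13 of 20 for Psma1, 12 of 21 for Psmc6, and 9 of 21 for Psmb1 and for Psmb4. The inducible genes had log2 differences of -0.13 for Psmb8 (95% interval -0.73 to 0.48), -0.13 for Psmb9 (-1.88 to 1.62), 0.31 for Psmb10 (-1.38 to 2.003) and 0.36 for Psme1 (-0.12 to 0.83), with limma adjusted p between 0.216 and 0.911. Psmb8 and Psmb9 overlapped between the groups. Psmb5 had a difference of -0.38 (limma adjusted p = 0.299) and Psmb7 one of 0.89 (limma adjusted p = 0.118).

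The subunit genes that rose in both comparisons numbered 8, Psma1, Psma4, Psma7, Psmb1, Psmb4, Psmc1, Psmd7 and Psmd8. That is 66.7% of the 12 and 72.7% of the 11. Among all tested probe sets 1445 rose in both, which is 73.2% and 58.6% of the probe sets that rose in each. The comparisons share no array, but they share the estimate of the spread, and in both the 3′ to 5′ control ratios and the neutrophil, B cell and T cell markers given above differ between the groups. The part of RNA quality and of cell makeup in these differences was not tested.

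In uninjured muscle over bone marrow, Psmb8 was the single subunit gene called, so that 0 of 40 rose and 1 fell, against 4.83% higher and 1.25% lower of all tested probe sets. At an unadjusted p under 0.05, 10 of the 40 passed in limma. The median log2 difference was -0.43, beside -0.03 over all tested probe sets, and 33 of 40 differences were below 0. All 4 inducible genes lay below bone marrow on both uninjured muscle arrays, as did 13 of the other 36, and 20.3% of all tested probe sets did. With median centring 669 probe sets of all were higher and 306 lower, against 787 and 204 with the deposited scaling. Of the standard catalytic subunits, Psmb5 had a log2 difference of -0.60 (limma adjusted p = 0.258), Psmb6 one of -0.49 (limma adjusted p = 0.249) and Psmb7 one of -0.23 (limma adjusted p = 0.809). More subunit genes were called lower when either uninjured muscle array was left out, and so was a larger share of all tested probe sets.

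In transplanted injured muscle over injured muscle, 0 of 40 subunit genes were called in either direction, against 0.0246% higher and 0.227% lower of all tested probe sets. One gene passed an unadjusted p under 0.05 in limma, Psmb6, with a log2 difference of 0.54 (SE 0.21, limma adjusted p = 0.469). The median log2 difference was 0.30, beside 0.00 over all tested probe sets. Of the 40 differences 37 were above 0, and for 34 genes both transplanted arrays lay above both injured ones, as they did for 24.9% of all tested probe sets. The other 3 differences, of Psma5, Psmd5 and Psme4, were between -0.28 and -0.03. The inducible genes had differences of 0.24 for Psmb8 (95% interval -0.37 to 0.85), 0.40 for Psmb9 (-1.35 to 2.15), 0.21 for Psmb10 (-1.48 to 1.90) and 0.05 for Psme1 (-0.42 to 0.53), and the standard Psmb5 and Psmb7 had differences of 0.28 and 0.48. Quantile normalisation gave 2 higher and 7 lower probe sets of all, against 4 and 37 with the deposited scaling, and no subunit gene either way. A fit on only the 4 arrays compared called 5 of 40 subunit genes higher, Psmb6, Psmc4, Psmc5, Psmc6 and Psmd1, against 2.27% of all tested probe sets, and none lower.

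**Figure D4:**
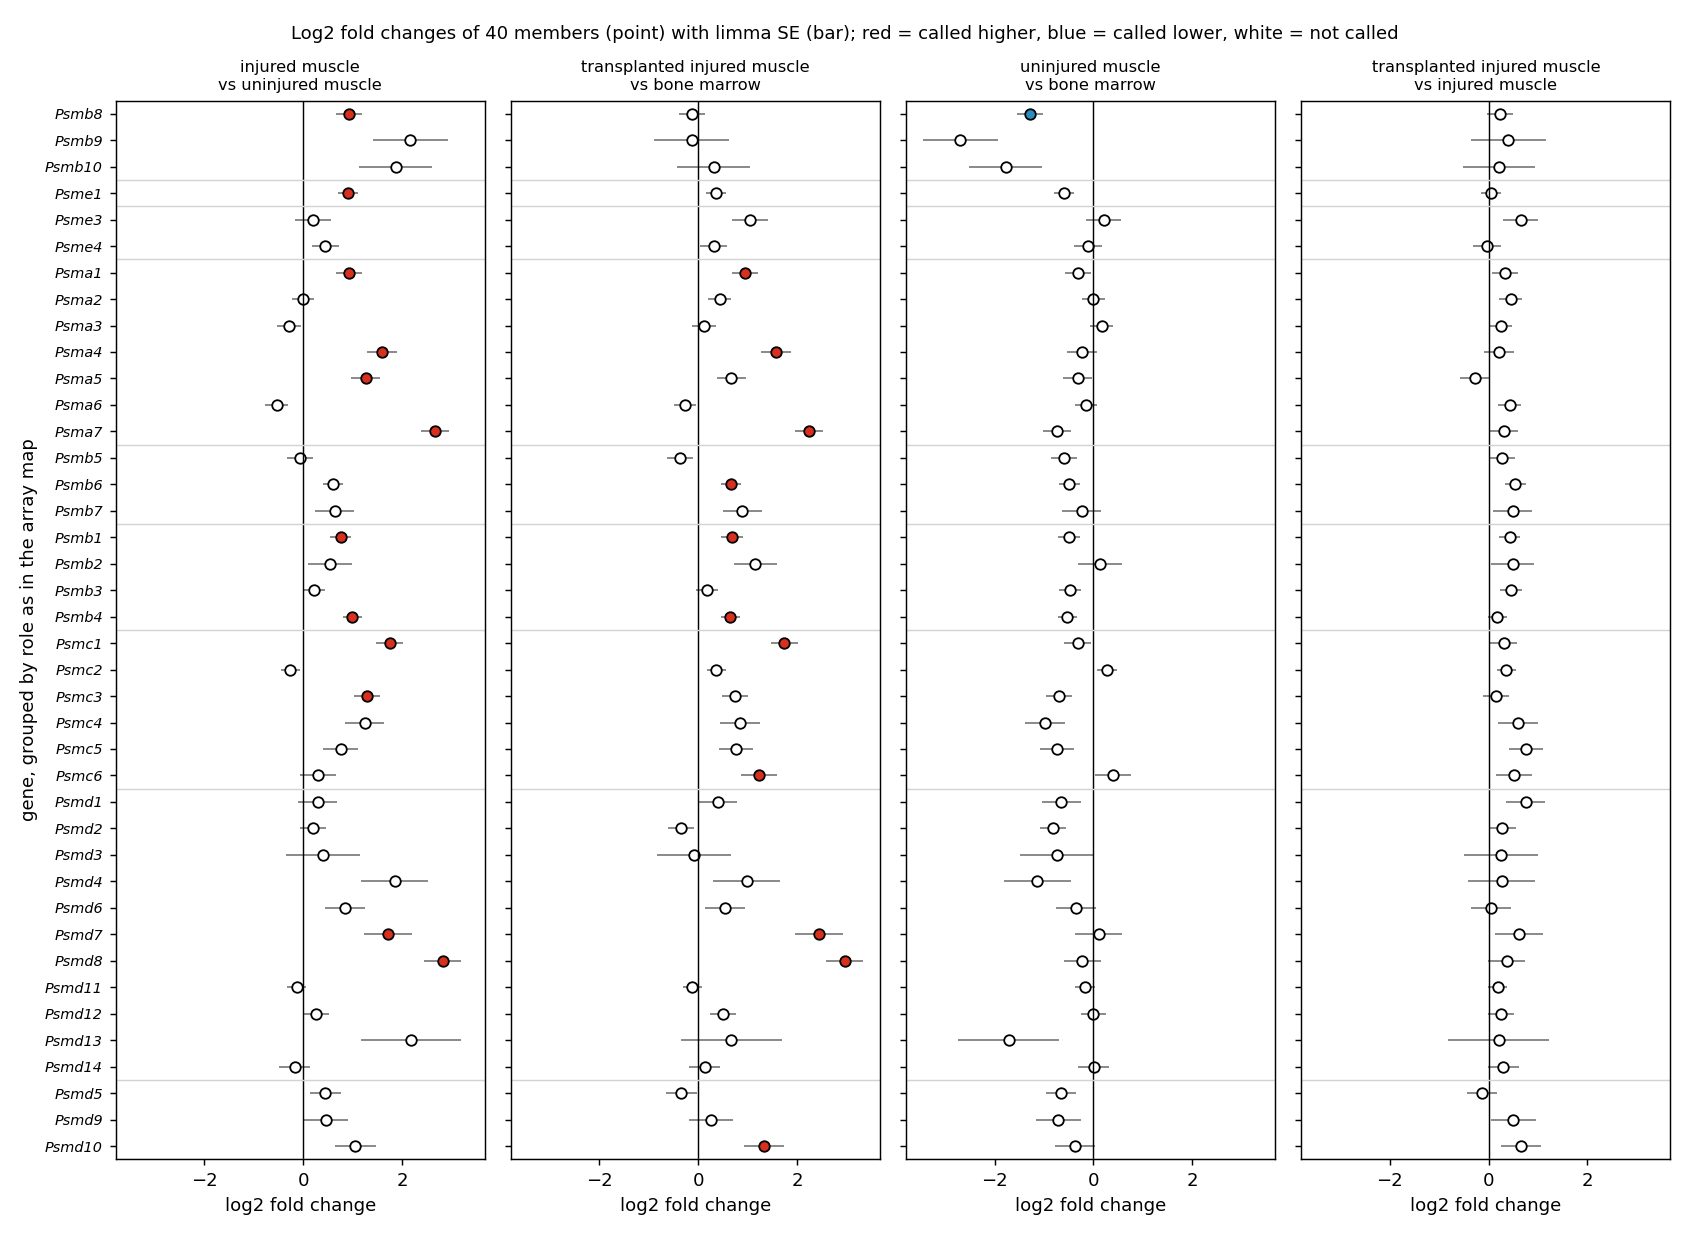
Log2 fold change of 40 subunit genes (rows, grouped by role) in the 4 comparisons (panels, horizontal axis in log2 units), with bars of 1 limma SE and filled points for calls. Injured over uninjured muscle holds 12 calls, transplanted injured muscle over bone marrow 11 calls, uninjured muscle over bone marrow the call of Psmb8 alone, and transplanted over untransplanted injured muscle none.

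Over the whole set of arrays, all 4 injured arrays lay above all 4 uninjured ones for 16 of the 40 genes, or 40%, against 18.8% of all tested probe sets. One of the 4 inducible genes, Psme1, was among them. Another grouping, in which both uninjured muscle arrays lay below the 6 others, held for 13 of the 40 genes, or 32.5%, against 6.15% of all tested probe sets, and included all 4 inducible genes. The other 9 were Psma7, Psmb1, Psmb4, Psmb6, Psmc1, Psmc3, Psmc4, Psmc5 and Psmd5. Both patterns were noticed after the values were seen and are given without a test.

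Where a gene had several probe sets, they often differed. The 4 inducible genes have 1 probe set each. Of the 12 genes called in injured over uninjured muscle, 5 had 6 further tested probe sets, of which 1 was called higher, 1 lower and 4 not, and 3 of 6 had the sign of the first. Psma7 was called higher on both of its probe sets, by 2.68 and 1.45. Psmb4 rose by 1.00 on 1 probe set and fell by 1.06 on the other (limma adjusted p = 0.0453), whose intensities were 381 and 237 in injured muscle, against 605 and 659 in uninjured muscle. Psmb1 rose by 0.76 on the probe set used and had differences of -0.57 and -1.44 on 2 others, whose intensities were at most 104 in these groups. The reverse occurred too: of the 28 genes not called, 12 had 19 further probe sets, of which 5 were called higher and 2 lower. Psmd4, the ubiquitin receptor, had 1.86 (limma adjusted p = 0.0773) on the probe set used and 4.02 (limma adjusted p = 0.00416) on another. Psme4, the activator PA200, had 0.45 on the one used, and 3.33 and 1.22 on others, both called higher. Psmb3 had 0.22 and 2.63, and Psmd11 had -0.13 on the one used and 2.40 on another, called higher like the second of Psmb3. Psmc4 and Psmc6 each had a further probe set called lower, with log2 differences of -1.10 and -1.46.

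**Figure D5:**
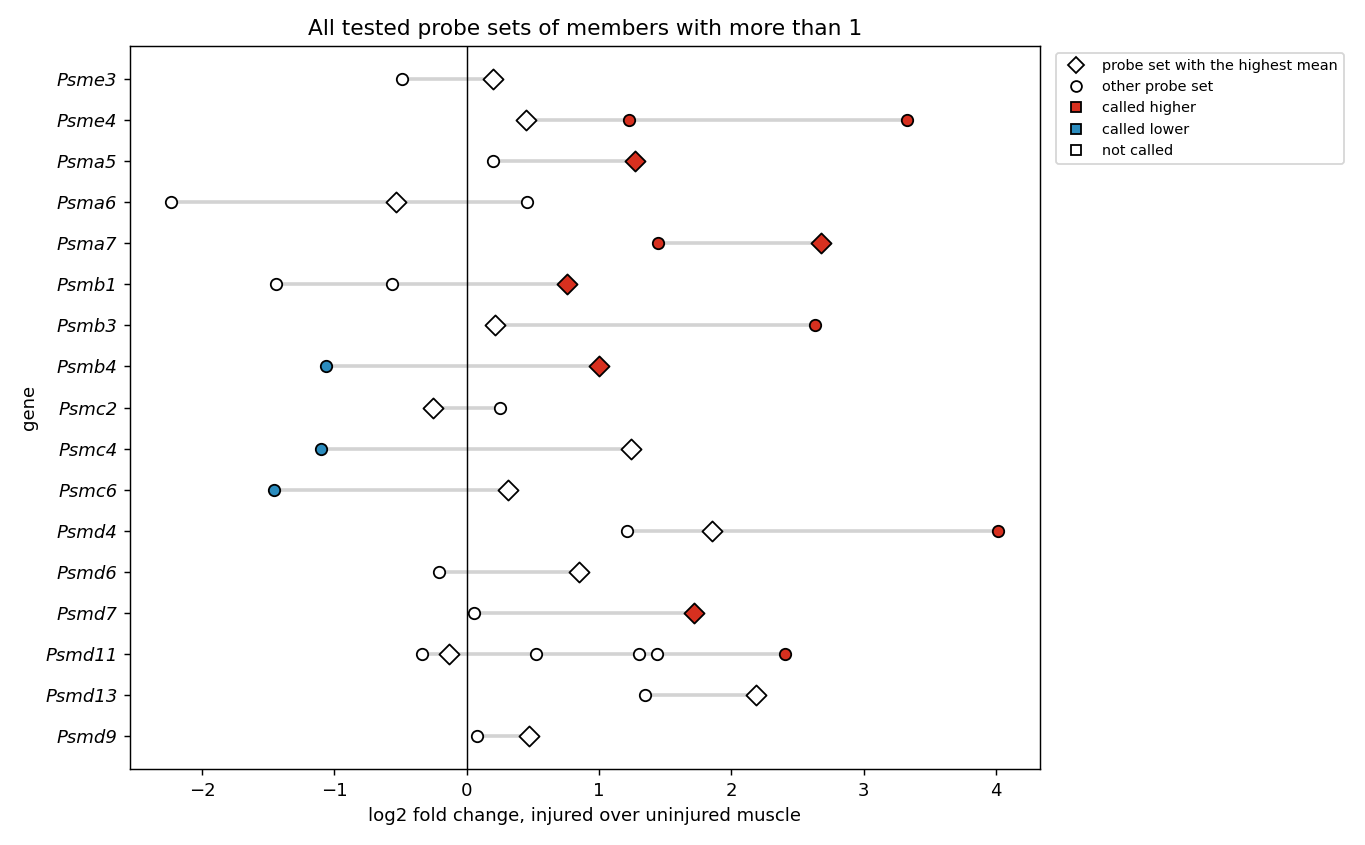
Log2 fold change of injured over uninjured muscle (horizontal axis) for every tested probe set of the 17 subunit genes with more than 1, with diamonds for the probe set with the highest mean, circles for the others, and colour for the call. Psmb4, Psmc4 and Psmc6 each have a probe set called lower, while Psmd4 and Psme4 each have a probe set above 3.

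The factors that build and serve the proteasome were followed in a list of 22, of which 18 were tested. In injured over uninjured muscle 2 rose, Pomp, the maturation protein of the core, and Vcp, an ATPase that extracts ubiquitinated proteins, and 1 fell, Usp14, a deubiquitinase of the 19S particle. These are 11.1% and 5.56% of the list, both under the 12.1% higher and 13.9% lower of all tested probe sets. The list's median log2 difference was 0.13. Pomp had 2475 and 1961 in injured muscle, against 975 and 629 in uninjured muscle, a log2 difference of 1.49 (SE 0.28, limma adjusted p = 0.00891). Vcp rose by 1.47 (SE 0.34, limma adjusted p = 0.0174). Usp14 had 105 and 151 in injured muscle, against 624 and 452 in uninjured muscle, and fell by 2.04 (SE 0.34, limma adjusted p = 0.00558). Over bone marrow, 4 rose in transplanted injured muscle, Pomp, Sem1, Nfe2l2 and Zfand5, and 1 fell, Usp14, or 22.2% and 5.56% against 15.1% and 17.4% of all tested probe sets. Usp14 was read on a probe set marked for cross-hybridisation, and on its second probe set the difference was 0.50 (limma adjusted p = 0.595). Nfe2l2, a factor known to drive proteasome genes under oxidative stress, rose by 1.80 over bone marrow (SE 0.47, limma adjusted p = 0.0209). It had 1809 and 1809 in transplanted injured muscle, 2130 and 2232 in injured muscle, 2076 and 946 in uninjured muscle, and 789 and 338 in bone marrow. Nfe2l2 was not called in injured over uninjured muscle. In uninjured muscle over bone marrow Zfand5 rose by 1.38 (SE 0.24, limma adjusted p = 0.0131) and no other gene was called, and in transplanted over untransplanted injured muscle 0 of 18 were. Of 8 ubiquitin and E1 genes listed, Uba7, the E1 of the ubiquitin-like protein Isg15, was tested, and it was called in none of the 4 comparisons. It had 694 and 652 in injured muscle, against 53.7 and 572 in uninjured muscle.

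MHC class I antigen processing genes, the partners of the immunoproteasome, numbered 15, of which 12 were tested. In injured over uninjured muscle 4 rose, B2m, H2-K1, H2-D1 and Pdia3, and 1 fell, the chaperone Canx, by 0.82 (SE 0.24, limma adjusted p = 0.0410). These are 33.3% and 8.33% of the list, against 12.1% and 13.9% of all tested probe sets. The median log2 difference of the list was 0.62. B2m, the light chain of class I molecules, had 16349 and 17154 in injured muscle, against 8086 and 4672 in uninjured muscle, a log2 difference of 1.45 (SE 0.26, limma adjusted p = 0.00729). H2-K1 rose by 0.97 and H2-D1 by 1.76, but H2 genes are near-identical copies whose probes may cross-hybridise, and without probe sets marked as such the difference of H2-D1 was -0.05. Pdia3, a disulphide isomerase of the loading complex, rose by 2.48 (SE 0.34, limma adjusted p = 0.00305). Tap1 had 1245 and 1656 in transplanted injured muscle, 1076 and 1176 in injured muscle, 318 and 773 in uninjured muscle, and 928 and 1302 in bone marrow. As for Psmb8, uninjured muscle was lowest and bone marrow overlapped both injured groups. Its difference of injured over uninjured muscle was 1.17 (SE 0.42, limma adjusted p = 0.0750). B2m, H2-K1, H2-D1 and Pdia3 rose in transplanted injured muscle over bone marrow, and Tapbpl fell by 1.47 (SE 0.33, limma adjusted p = 0.0116), again 33.3% and 8.33% of the list, against 15.1% and 17.4% of all tested probe sets. No gene of the list was called in uninjured muscle over bone marrow or in transplanted over untransplanted injured muscle.

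The interferon gamma pathway list held 16 genes, of which 15 were tested. Ifng itself, the ligand, had 51.7 and 57.0 in transplanted injured muscle, 41.1 and 26.7 in injured muscle, 387 and 206 in uninjured muscle, and 1063 and 1345 in bone marrow. It fell by 2.94 in injured relative to uninjured muscle (SE 0.41, limma adjusted p = 0.00307) and fell by 2.07 in uninjured muscle relative to bone marrow (SE 0.41, limma adjusted p = 0.0228). Of the injured muscle arrays, 1 of 2 lay above the filter of 38.4, so the size of that fall is uncertain. Ifng was lowest in injured muscle, and the inducible subunits were lowest in uninjured muscle. Whether Ifng and these subunits are linked in these samples was not tested. Neutrophil, B cell and T cell markers all moved with Ifng between injured and uninjured arrays, and the part of these cells was not tested. In injured over uninjured muscle 6 of the list rose, the receptor chain Ifngr2, the kinase Jak1, the targets Gbp2 and Irgm1, and the chemokines Cxcl9 and Cxcl10, and 3 fell, Ifng, the kinase Jak2 and the transcription factor Irf1. These are 40% and 20% of the list, against 12.1% and 13.9% of all tested probe sets. Cxcl10 had 2706 and 2563 in injured muscle, against 429 and 469 in uninjured muscle, a log2 difference of 2.54 (SE 0.34, limma adjusted p = 0.00278). Irf1, known to act on the shared Psmb9 and Tap1 promoter, fell by 1.32 (SE 0.22, limma adjusted p = 0.00589). Over bone marrow, 6 rose and 4 fell in transplanted injured muscle, the last being Ifng, Jak2, Irf1 and Irf8, or 40% and 26.7% against 15.1% and 17.4% of all tested probe sets. In uninjured muscle over bone marrow Cxcl10 rose and Ifng and Irf8 fell, or 6.67% and 13.3% against 4.83% and 1.25%. None was called in transplanted over untransplanted injured muscle.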

How the data were processed

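CD45+/Sca1+ cells of 4 groups, 2 arrays each, were measured on Affymetrix Mouse430A arrays from 1 µg of total RNA, per the labels' protocols. The authors deposited linear intensities, 1 value for each probe set, and each array's trimmed mean was 250.09 to 250.12 (checked), so they had been scaled by the authors. The submitters' processing notes name GCOS, and no source used here gives the background and summary steps.

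Of 22690 probe sets 64 controls were left out. Of the others, 20380 were annotated to 1 gene, 691 to several and 1555 to none, and 20351 symbols were updated by gene identifier. Values under 1 were set to 1, and log2(intensity + 4) was used, so fold changes of dim genes are understated. A probe set was tested if 2 or more of the 8 arrays reached 38.4 (the 40th percentile), which 16285 did, in limma 3.58.1 (R 4.3.3), with 1 mean per group over 8 arrays (4 residual degrees of freedom), an intensity trend, two-sided tests and Benjamini-Hochberg adjustment over all tested probe sets at a threshold of 0.05. "Called", "rose" and "fell" mean past that threshold. Precision is limited by how few arrays there are, with a median SE of 0.45.

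The subunit genes, gene lists, tests and alternatives were chosen with earlier results of these data known. The genes named with values are the inducible subunits, Psmb5, Psmb6 and Psmb7, per comparison up to 12 further called subunit genes with the smallest adjusted p, any called against the more frequent direction, and up to 4 genes per list with the smallest p. Others named were chosen after their values were seen, among them Psmd13, Psmb3, Psmd4, Psmd11, Psme4, Psmc4 and further called list genes. The limma script was tested on simulated data. Alternatives were another scaling, pseudocount, filter, variance model, choice of arrays, array weights, replicate block and probe set, and leaving out each array.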

Additional observations from a re-analysis of the deposited data

How the results depend on the processing

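Counts are of 40 subunit genes called, under 21 alternatives, 2 of them (the second brightest probe set, with 17 genes, and no x or s probe sets) chosen after seeing the data. In injured over uninjured muscle, 12 were higher in the deposited scaling, 4 with only the 4 arrays compared, 4 on the second probe set and 3 to 16 with an array left out. None was lower, except 3 on the second probe set and 0 to 1 with an array left out. In transplanted injured muscle over bone marrow, 11 were higher, 6 with no intensity trend, 17 with array weights, 3 on the second probe set (where 2 were lower) and 4 to 18 with an array left out. In uninjured muscle over bone marrow, 1 was lower, and 0 with no intensity trend, with only the 4 arrays compared, with array weights or on the second probe set, and 0 to 10 with an array left out. In transplanted over untransplanted injured muscle 0 were higher, and 5 with only the 4 arrays compared. Where leaving out an array left a group with 1 sample, that sample was taken to vary like the other groups. Shares of all tested probe sets called higher also changed with the setting. With only the 4 arrays compared they were 6.41% in injured over uninjured muscle and 2.27% in transplanted over untransplanted injured muscle.

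Differences that turned sign, in injured over uninjured muscle, were those of Psmb4 (-0.0305 as the mean of its probe sets, -1.06 on the second), Psmb1 (-0.42 and -0.57) and H2-D1 (-0.0528 with no x or s probe sets). In transplanted injured muscle over bone marrow they were those of Psmd7 (-0.0032 and -2.45, the second a call), Psmb4 (-0.11 and -0.87), Psmc6 (-0.66 on the second) and Usp14 (0.50 on the second and with no x or s probe sets). The cause was not tested. A turn between values that both missed the threshold is not listed. Median centring moved the median of all probe sets in injured over uninjured muscle to 0.03, against -0.14, and that of the subunit genes to 0.85, against 0.70.

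Replicate numbers are shared between groups, but same-numbered arrays deviated together only in uninjured muscle and bone marrow (correlation 0.313, against -0.0317 to 0.0029 in the other 5 pairs of groups), so the numbers were not taken as pairs. With the replicate block 13 subunit genes were higher in injured over uninjured muscle, 8 in transplanted injured muscle over bone marrow, 1 was lower in uninjured muscle over bone marrow and 0 were called in transplanted over untransplanted injured muscle.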
